A study of Drosophila melanogaster with 9 samples.

Results

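Cytochrome P450 enzymes are haem proteins that insert oxygen into small lipophilic molecules. In insects they clear plant toxins and insecticides, make and break down steroid hormones, form the hydrocarbons of the cuticle and degrade odorants. They are commonly sorted into clades by sequence, and the Cyp6 and Cyp9 clades of the CYP3 clan and the Cyp4 clade of the CYP4 clan hold most of the genes known for detoxification, whereas the mitochondrial clan holds the Cyp12 clade and part of the ecdysone pathway. Members of the family were taken from the array annotation by symbol, as Cyp followed by digits and a lower-case letter, on probe sets that name a single gene. This gave 81 genes on 83 of the 18769 probe sets tested, and the probe set with the highest mean over the 9 arrays stood for each gene. The genes were 22 of the Cyp4 clade, 23 of the Cyp6 clade, 5 of the Cyp9 clade, 6 of the Cyp12 clade, 9 others of the CYP3 clan, 10 others of the CYP4 clan, 4 of the CYP2 clan and 2 other mitochondrial genes.

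Heads of untreated adult male flies of 3 genotypes were profiled on Affymetrix Drosophila 2.0 arrays, 9 in all and 3 per genotype, to ask which transcripts differ when the transcriptional regulator dLMO is altered. *BxJ* flies carry a gain-of-function allele of *dLmo* (*Bx*, on the X chromosome), *EP1306* flies carry a loss-of-function allele, and the control, *w;iso*, is a *w1118* stock isogenic for chromosomes II and III to which the lines had been out-crossed for at least 5 generations. Per the labels the flies were 2 to 3 days old, and those of a genotype came from 3 bottles and formed 1 pool of 600 whose RNA was split in 3 for hybridization, whereas the methods give 3 groups of 200 heads and an age of 2 to 4 days. The p-values below therefore measure the spread between arrays, which may be technical, and each mutant is represented by a single line. Heads are a mixture of cell types, so fewer cells of a type and less RNA per cell cannot be told apart.

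Arrays of a genotype correlated at 0.994 to 0.998 across probe sets, and array medians differed by 0.08 at most on the log2 scale. Photoreceptor transcripts (4 genes) summed to 58010 to 63520 in *BxJ*, 64270 to 66800 in *EP1306* and 63690 to 70640 in the control. Neuronal transcripts (4 genes) summed to 1956 to 2090 in *BxJ*, 2131 to 2312 in *EP1306* and 2136 to 2705 in the control. On both sums all *BxJ* arrays lay below the others. By single genes, *BxJ* lay wholly below the control for *elav*, *futsch* and *Arr2*, and overlapped with it for the other genes of both lists. *nSyb* was higher on all *BxJ* arrays than on any *EP1306* array. Glial transcripts (6 genes, 0 called in either mutant) summed to 28920 to 29820 in *BxJ*, 28300 to 29470 in *EP1306* and 30290 to 31860 in the control. Only *nrv2* of these lay wholly below the control in both mutants. Muscle transcripts (8 genes) summed to 54810 to 57110 in *EP1306*, 58230 to 61160 in *BxJ* and 62040 to 66430 in the control. In *EP1306* 3 of the 8 (*Act88F*, *Mlp84B* and *TpnC73F*) were called lower, at a background of 0.826% of all genes. The others were not called. *fln* and *TpnC4* had positive differences (1.27 and 0.70) that came from *EP1306* replicate 3 alone, at 319 and 116. On the other *EP1306* arrays they were at 8.50 to 10.8 and 12.3 to 13.4, overlapping with the control. *BxJ* replicate 3 was likewise high, at 102 and 112. The part of these lists in the P450 results was not tested. The spike-in controls (18 probe sets) averaged 8.66 to 9.57 on the *BxJ* arrays, 8.88 to 9.78 on the *EP1306* arrays and 9.83 to 11.12 on the control arrays, on the log2 scale, so spike-in level and genotype cannot be told apart for the control. The *dLmo* transcript itself was not analysed here. Intensities are MAS5 values on a linear scale. Differences and folds were computed on log2(intensity + 16), which understates the change of dim probe sets. "Called" means a limma adjusted p under 0.05 over all probe sets tested. Levels of different genes are not compared, since each probe set has its own response.

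The median log2 difference over the 81 genes was -0.01 in *BxJ* and -0.01 in *EP1306*, beside -0.01 and -0.01 over all 11982 genes, with 47 of the 81 at a mean intensity of 50 or more. In *BxJ* none of the 81 genes was called, at a background of 0.325% of all genes. At an unadjusted p under 0.05, limma gave 5 P450 genes higher and 2 lower in *BxJ*, at a background of 4.08% of genes higher and 8.30% lower, and the methods' pairwise test gave 4 (4.94%, against 6.03% of all genes). In *EP1306*, 5 of the 81 genes were called, or 6.17%, at a background of 1.31% of all genes. *Cyp6a20* and *Cyp4s3* were higher and *Cyp309a1*, *Cyp6d2* and *Cyp4p1* were lower. The background by direction was 0.484% of genes higher and 0.826% lower. Between the mutants 2 genes were called, *Cyp6a20* and *Cyp309a1*, at a background of 1.45%. The F-test over the 3 genotypes called *Cyp6a20*, *Cyp309a1* and *Cyp6d2*, at a background of 1.76%. Both comparisons with the control use the same 3 control arrays.

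**Figure D1:**
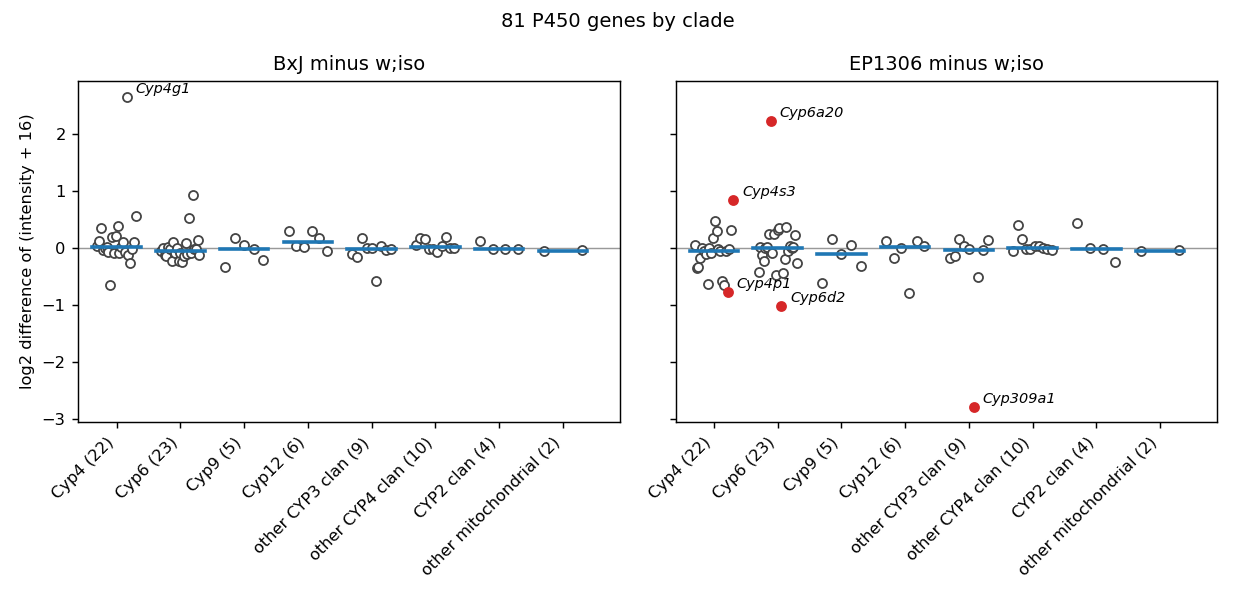
Log2 difference of (intensity + 16) from the control for each of the 81 P450 genes (1 point each), in BxJ (left) and EP1306 (right), by clade with the number of genes in brackets; blue bars are clade medians and red points are called by limma. No point is red in BxJ, and 5 are red in EP1306, from Cyp309a1 at -2.78 to Cyp6a20 at 2.23.

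*Cyp6a20*, a Cyp6 enzyme known for its part in male aggression, showed the greatest rise of the family in *EP1306*. Its intensity was 1561, 1771 and 1726 on the *EP1306* arrays, 405, 371 and 273 on the control arrays and 378, 362 and 375 on the *BxJ* arrays. The *EP1306* arrays lay far above the other 6, and the *BxJ* and control arrays overlapped. The rise was 4.71-fold in *EP1306*, or 2.23 ± 0.13 on the log2 scale (SE, limma adjusted p = 0.000137), against 0.10 ± 0.13 in *BxJ* (limma adjusted p = 0.688). *EP1306* exceeded *BxJ* by 2.13 ± 0.13 (limma adjusted p = 0.0002). By exact two-sided permutation the *EP1306* difference gave p = 0.1, the smallest that 10 splits of 6 arrays can give, and the F statistic over 280 splits gave p = 0.0286. *Cyp6a20* was called in *EP1306* under each of the 9 omissions of a single array and each of the 11 other limma settings run, with a limma adjusted p of 0.0145 at most. The methods' pairwise test called 0 P450 genes in *EP1306* after Benjamini-Hochberg adjustment.

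*Cyp309a1*, of the CYP3 clan, showed the greatest fall. Its intensity was 25.5, 20.0 and 29.6 on the *EP1306* arrays, 457, 238 and 169 on the control arrays and 197, 203 and 131 on the *BxJ* arrays. All *EP1306* arrays lay below all others, and the control arrays were widely spread, with replicate 1 the highest. The level was 6.89-fold lower in *EP1306* (log2 difference -2.78 ± 0.32, limma adjusted p = 0.00574), and the log2 difference in *BxJ* was -0.57 ± 0.32 (limma adjusted p = 0.467). *EP1306* lay below *BxJ* by a log2 difference of -2.22 ± 0.32 (limma adjusted p = 0.0186). The exact two-sided permutation p was 0.1 in *EP1306*, the smallest possible, 0.3 in *BxJ*, and 0.0107 for the F statistic over 280 splits. The *EP1306* call was kept in all 9 omissions of a single array. It was lost without the 3 arrays richest in accessory gland transcripts, 1 of each genotype (log2 difference -2.87, limma adjusted p = 0.111), and with replicates 2 and 3 alone (-2.42, limma adjusted p = 0.0505).

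**Figure D2:**
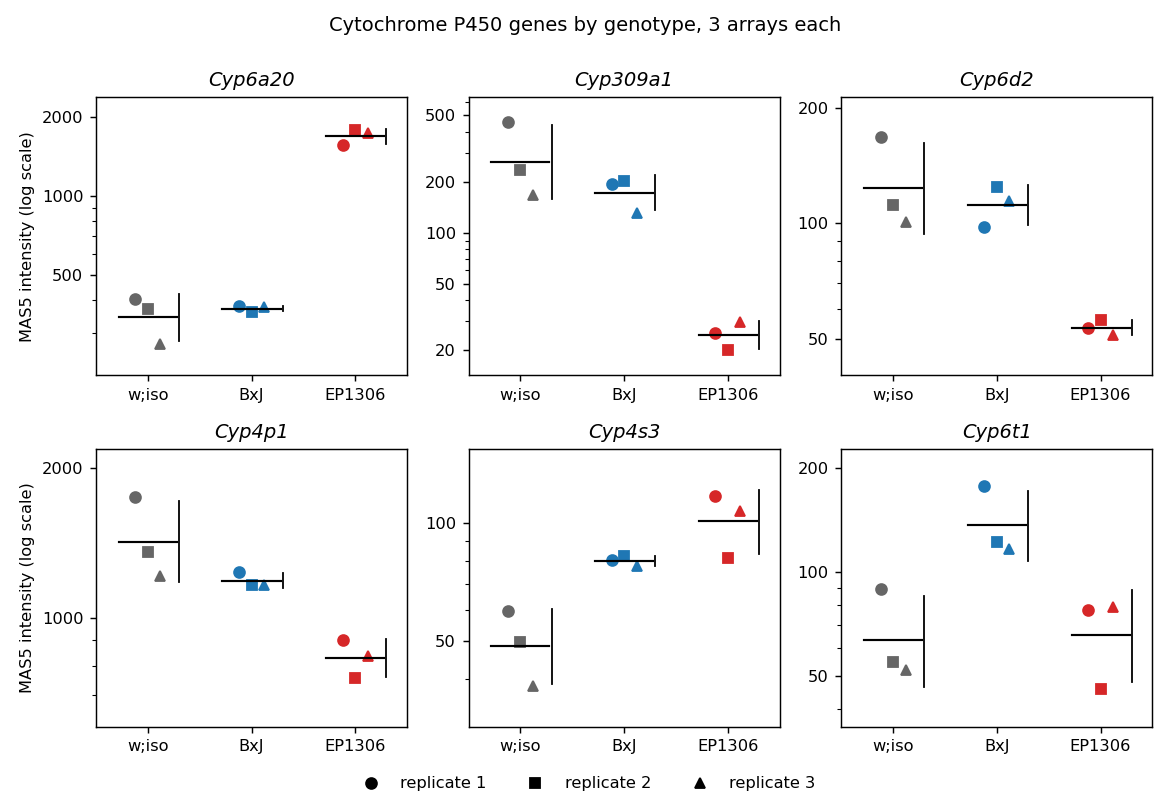
MAS5 intensity (log scale) of 6 P450 genes on each array, by genotype; bars are means and vertical lines 1 SD (n = 3), computed on log2(intensity + 16), and symbols mark replicate numbers. EP1306 arrays stand apart from all others for Cyp6a20 (1561 to 1771), Cyp309a1 (20.0 to 29.6), Cyp6d2 (51.3 to 55.9) and Cyp4p1 (756 to 901).

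The other 3 calls in *EP1306* were smaller. *Cyp6d2* measured 53.4, 55.9 and 51.3 in *EP1306*, 168, 112 and 101 in the control and 98.1, 125 and 115 in *BxJ*. *EP1306* was below all other arrays, 2.01-fold lower than the control (log2 difference -1.01 ± 0.17, limma adjusted p = 0.0349), while *BxJ* overlapped with the control (-0.13 ± 0.17, limma adjusted p = 0.705).

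*Cyp4p1*, of the Cyp4 clade, measured 901, 756 and 839 in *EP1306*, 1747, 1358 and 1211 in the control and 1234, 1165 and 1165 in *BxJ*. *EP1306* again lay below the other 6 arrays, 1.70-fold lower than the control (log2 difference -0.77 ± 0.12, limma adjusted p = 0.0302), and *BxJ* overlapped with the control at -0.26 ± 0.12 (limma adjusted p = 0.441).

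*Cyp4s3*, an X-linked Cyp4 gene, measured 117, 81.3 and 108 in *EP1306*, 80.7, 82.4 and 77.7 in *BxJ* and 59.7, 49.8 and 38.6 in the control. Both mutants lay above every control array. The difference was 0.85 ± 0.16 in *EP1306* (1.80-fold, limma adjusted p = 0.0478) and 0.57 ± 0.16 in *BxJ*, which was not called (limma adjusted p = 0.252), and the mutants overlapped with each other.

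Each of these 3 calls was kept in only 2 of the 9 omissions of a single array. Those of *Cyp6d2* and *Cyp4p1* were lost on leaving out any *BxJ* or *EP1306* array or control replicate 2 (limma adjusted p up to 0.122 and 0.113). That of *Cyp4s3* was lost without any *BxJ* array, *EP1306* replicate 1 or 3, or control replicate 2 or 3 (up to 0.157). All 3 were also lost with the compared genotypes alone (limma adjusted p of 0.121 for *Cyp6d2*, 0.123 for *Cyp4p1* and 0.177 for *Cyp4s3*) and without the 3 arrays richest in accessory gland transcripts (0.289, 0.214 and 0.425). With spike-in level as a covariate, added after seeing the data, the call of *Cyp4p1* was kept. Those of *Cyp4s3* (0.58, limma adjusted p = 0.468) and *Cyp6d2* (-1.20, limma adjusted p = 0.194) were lost there.

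Counted by array order alone, *EP1306* lay below both other genotypes on every array for 6 of the 81 P450 genes, or 7.41%, beside 3.42% of all genes. Besides *Cyp309a1*, *Cyp6d2* and *Cyp4p1* these were *Cyp6a13*, *Cyp9b1* and *Cyp305a1*, none of which was called. *Cyp6a13* was 178, 150 and 149 in *EP1306* against 258, 194 and 204 in the control (-0.42 ± 0.12, limma adjusted p = 0.225). *Cyp9b1* was 86.4, 96.8 and 90.1 against 203, 124 and 124 (-0.60 ± 0.17, limma adjusted p = 0.215). *Cyp305a1* was 426, 421 and 439 against 561, 495 and 484 (-0.25 ± 0.07, limma adjusted p = 0.204). These separations are narrow beside that of *Cyp309a1*. *EP1306* lay above both other genotypes for *Cyp6a20* alone, 1.23% of the family against 2.64% of all genes. Against the control only, *EP1306* did not overlap for 5 genes above and 11 below, at a background of 5.12% of genes above and 9.34% below.

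In *BxJ*, 4 genes lay wholly above and 8 wholly below the control arrays, at a background of 4.11% of genes above and 22.2% below. All 8 below had a mean intensity under 50. *Cyp6t1*, an X-linked Cyp6 gene, had the smallest p of the family in this comparison. It measured 178, 122 and 117 in *BxJ*, 89.2, 54.6 and 51.9 in the control and 77.4, 45.7 and 79.1 in *EP1306*. *BxJ* stood above all other arrays (0.94 ± 0.25, limma adjusted p = 0.235), whereas *EP1306* and the control overlapped (0.04 ± 0.25). The 95% interval of the *BxJ* difference ran from 0.38 to 1.5, and it was not adjusted for the number of genes. With spike-in level as a covariate, added after seeing the data, the *Cyp6t1* difference was 0.18 in *BxJ* and -0.63 in *EP1306*, and that of *EP1306* minus *BxJ* went from -0.90 (limma adjusted p = 0.206) to -0.81 and was called (limma adjusted p = 0.0454). *BxJ* also lay above the control for *Cyp4d14*, at 22.9, 27.7 and 19.96 against 17.9, 18.7 and 18.5 (0.20 ± 0.07, limma adjusted p = 0.379), which is near the floor of the array.

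*Cyp4d21*, also known as *sxe1*, a male-biased gene of the head fat body with a role in courtship, and *Cyp4s3* were the genes whose *BxJ* and *EP1306* arrays all exceeded the control arrays (2.47% of the family, 1.04% of all genes). *Cyp4d21* measured 6230, 4786 and 4844 in *BxJ*, 6048, 5057 and 5796 in *EP1306* and 4700, 3808 and 3626 in the control. The mutants overlapped with each other and lay above the control by 0.38 ± 0.13 in *BxJ* (limma adjusted p = 0.364) and 0.48 ± 0.13 in *EP1306* (limma adjusted p = 0.193). With the spike-in covariate the differences were -0.03 and 0.11 (limma adjusted p = 0.98 and 0.78), and among probe sets with a mean intensity of 50 or more *Cyp4d21* was called in *EP1306* (limma adjusted p = 0.0475). The fat body list beside it (7 genes, 0 called in either mutant) summed to 16330 to 17970 in *BxJ*, 14160 to 16820 in *EP1306* and 12640 to 17290 in the control, and its part in the *Cyp4d21* values was not tested. In the other direction, *Cyp304a1* and *Cyp4d1* lay below the control in both mutants (2.47% of the family, 3.9% of all genes). *Cyp4d1* measured 56.2, 39.6 and 19.8 in the control, and 14.4 to 19.6 on the 6 mutant arrays, so its control arrays spread over a range that nearly met the mutants (-0.64 ± 0.22 in *BxJ* and -0.63 ± 0.22 in *EP1306*, limma adjusted p = 0.364 and 0.354).

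*Cyp18a1*, of the CYP2 clan, encodes the hydroxylase that inactivates ecdysteroids. It measured 428, 333 and 462 in *EP1306*, 346.4, 309.2 and 308.6 in *BxJ* and 286.8, 277.9 and 317.5 in the control. *EP1306* lay above the control (0.44 ± 0.12, limma adjusted p = 0.18) and overlapped with *BxJ*. A second *Cyp18a1* probe set gave 106, 72.0 and 168 in *EP1306* against 101, 73.9 and 106 in the control, which overlapped (0.21, limma adjusted p = 0.825). *Cyp18a1* is the P450 gene nearest to *dLmo*, with 14 genes between them in the RefSeq gene order of Release 6. Of the 14 X-linked members 1 was called, *Cyp4s3*, which lies 395 genes from *dLmo*.

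The genes best known for insecticide resistance were not called in either mutant. *Cyp6g1*, whose overexpression gives DDT resistance, measured 2569, 1872 and 1746 in *BxJ*, 2070, 1689 and 1711 in *EP1306* and 1795, 1351 and 1145 in the control. The groups overlapped (0.53 ± 0.19 in *BxJ*, limma adjusted p = 0.375, and 0.36 ± 0.19 in *EP1306*, limma adjusted p = 0.623). *Cyp6a2*, which is induced by phenobarbital, measured 1381, 1176 and 1245 in *EP1306* and 1012, 971 and 778 in *BxJ*, and the control, at 1237, 1086 and 899, overlapped with both. The mutants did not overlap with each other, but the difference of 0.46 ± 0.14 was not called (limma adjusted p = 0.25).

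Among the Cyp12 genes, which are mitochondrial, the widest difference was in *Cyp12c1*, at 277, 232 and 160 in *BxJ*, 111, 83.4 and 91.0 in *EP1306* and 295, 164 and 108 in the control. *EP1306* lay below *BxJ* (-1.08 ± 0.32, limma adjusted p = 0.259) and overlapped with the control. *Cyp12e1* has a pair of probe sets which differed: the one with the higher mean gave 0.04 in *EP1306* and the other 0.41, neither called (limma adjusted p = 0.927 and 0.509). The clade medians in *EP1306* ran from -0.11 for Cyp9 to 0.02 for Cyp12, and in *BxJ* from -0.05 for Cyp6 to 0.11 for Cyp12.

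Many P450 genes of the fly lie in tandem. In the RefSeq order, 44 of the genes fell into 15 clusters of neighbours with at most 2 genes between them, and *Cyp6a20* lay in the largest, 9 genes on chromosome arm 2R. The order there was *Cyp6a22*, *Cyp6a17*, *Cyp6a23*, *Cyp6a19*, *Cyp6a9*, *Cyp6a20*, *Cyp6a21*, *Cyp6a8* and *Cyp317a1*. Of the neighbours, *Cyp6a17*, *Cyp6a21* and *Cyp6a23* were chosen for mention after their values were seen, because of their position. Only *Cyp6a20* was called in this cluster. *Cyp6a9*, on one side of it, measured 378, 400 and 473 in *EP1306* against 357, 341 and 276 in the control (0.35 ± 0.20, limma adjusted p = 0.663). *Cyp6a21*, on the other side, measured 324, 336 and 336 against 432, 354 and 282 (-0.08 ± 0.13, limma adjusted p = 0.878). *EP1306* thus lay above the control without overlap at *Cyp6a9* and within it at *Cyp6a21*. *Cyp6a23* and *Cyp6a17*, the latter known for a role in temperature preference, had log2 differences of -0.46 and -0.23 in *EP1306* (limma adjusted p = 0.414 and 0.461), and *Cyp6a8* 0.33 (limma adjusted p = 0.583).

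**Figure D3:**
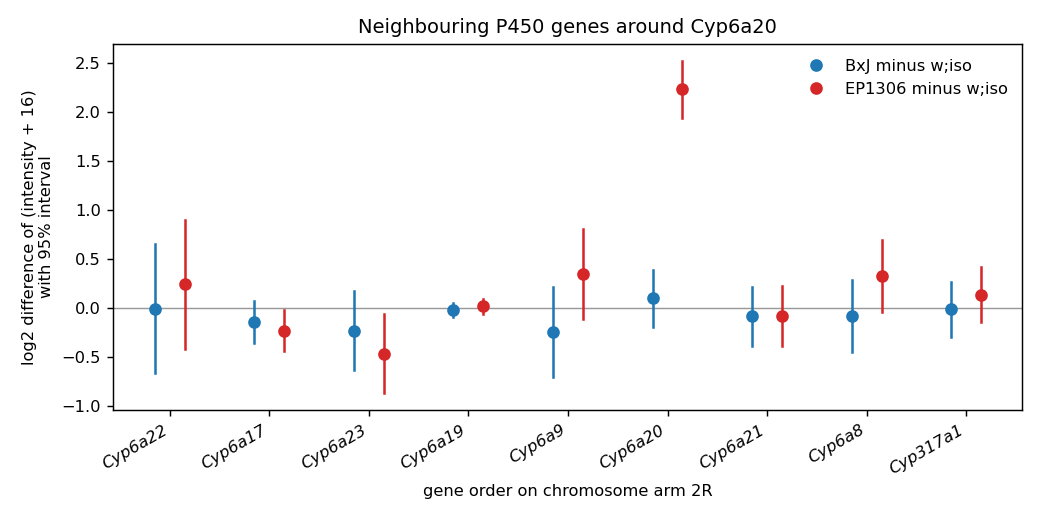
Log2 difference of (intensity + 16) from the control, with the 95% interval of the limma fit, for the 9 neighbouring P450 genes around Cyp6a20 in gene order on chromosome arm 2R (x axis), in BxJ (blue) and EP1306 (red). Cyp6a20 in EP1306 stands at 2.23, and the 17 other estimates lie between -0.46 and 0.35.

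The other called genes with P450 neighbours were *Cyp309a1* and *Cyp4p1*. *Cyp309a2*, adjacent to *Cyp309a1*, measured 111, 79.5 and 76.5 in *EP1306*, 180, 112.3 and 111.9 in the control and 189, 119 and 109 in *BxJ*. All 3 *EP1306* arrays lay below the control, by a narrow gap (-0.51 ± 0.24, limma adjusted p = 0.58). Of the neighbours of *Cyp4p1*, *Cyp4p3* (chosen for its position after its values were seen) measured 74.1, 55.0 and 93.8 in *EP1306* and 61.6, 61.6 and 45.1 in the control, which overlapped (0.31 ± 0.17, limma adjusted p = 0.65). *Cyp4p2* was under 6.3 on every array. Whether neighbours differ from each other in response was not tested.

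P450 genes varied more between arrays of 1 genotype than other genes did, and in a common direction. Over the 47 members with a mean intensity of 50 or more, the median SD between arrays on the log2 scale was 0.228 in the control, 0.151 in *BxJ* and 0.134 in *EP1306*, beside 0.122, 0.0935 and 0.12 over 6512 genes with such a mean. Replicate 1 was the highest array of its genotype for 40 of the 47 genes in the control (85.1%, against 55.7% of the 6512), for 30 in *BxJ* (63.8% against 35%) and for 26 in *EP1306* (55.3% against 25.8%). For 19 of the 47 it was highest in all 3 genotypes (40.4% against 10.6%). The numbers carry no order or stated pairing.

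The sum of the fat body list was also highest on replicate 1 of each genotype, at 17970, 17750 and 16330 in *BxJ*, 16820, 14950 and 14160 in *EP1306* and 17290, 14440 and 12640 in the control. Most of that sum was apolpp, and bmm of the same list was lowest on replicate 1 in both mutants. *AkhR* was highest on replicate 3 in *EP1306*, and *tsl* on replicate 2 in *BxJ* and 3 in the control. *Fbp1* and *Fbp2* were at the floor. The sum of the Malpighian tubule list (5 genes) was likewise highest on replicate 1. It was 1258, 1183 and 1023 in *BxJ*, 1061, 891.3 and 891.2 in *EP1306* and 1145, 811.9 and 842.5 in the control. Most of that sum was *Oat* and *NtR*. In contrast, *salt* was highest on replicate 3 in each genotype, *Irk3* on replicate 3 in *EP1306*, and *CG15406*, at the floor, on replicate 3 in *BxJ* and 2 in the control. The part of these lists in the replicate pattern was not tested. On the mean over the 47 genes, control replicate 1 lay 0.20 above and replicate 3 lay 0.20 below the mean of the control, on the log2 scale. With replicates 2 and 3 alone, the call of *Cyp6a20* in *EP1306* remained (of 1 P450 gene called) and the other 4 were lost, in a fit on 6 arrays.

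**Figure D4:**
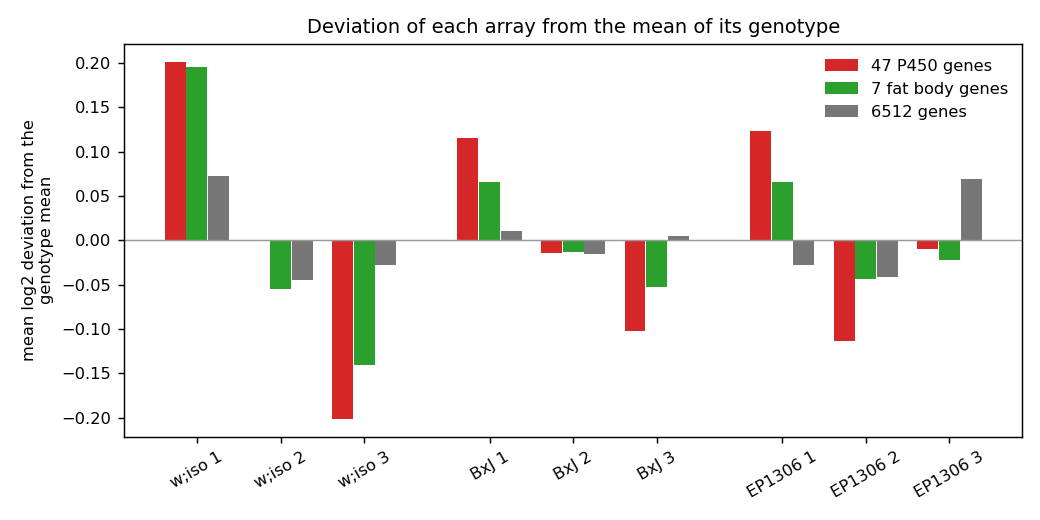
Mean log2 deviation of each array (x axis) from the mean of its genotype, over 47 P450 genes (red), 7 fat body genes (green) and 6512 genes (grey), all but the fat body list restricted to a mean intensity of 50 or more. Replicate 1 is highest for the red and green bars in each genotype, at 0.20 for the P450 genes in the control.

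*Cyp4g1*, an X-linked Cyp4 gene and the decarbonylase that makes cuticular hydrocarbons in oenocytes, varied most of all. It was chosen for mention after its values were seen. Its intensity was 936, 523 and 2866 in *BxJ*, 874, 30.2 and 20.7 in *EP1306* and 33.0, 2830 and 25.8 in the control. The arrays fell into 5 high and 4 low ones that cut across the *EP1306* and control groups, and no comparison was called (2.66 ± 1.80 in *BxJ*, limma adjusted p = 0.505, and -0.65 ± 1.80 in *EP1306*, limma adjusted p = 0.928). The same 5 arrays were high in the summed transcripts of the male accessory gland, an abdominal organ. The 12 genes of that list summed to 2099, 1182 and 6601 in *BxJ*, 1736, 188 and 145 in *EP1306* and 140, 1457 and 184 in the control. On control replicate 2 most of the sum was *Acp98AB* (758) and *Mst57Da* (336). *Acp26Aa* (20.0) and *Acp76A* (10.9) were there close to or below their values on control replicate 3 (19.4 and 15.6). *Acp26Ab* and *Acp29AB* were at the floor on every array but *BxJ* replicate 3.

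Midgut transcripts (11 genes) summed to 783, 398 and 1272 in *BxJ*, 177, 148 and 146 in *EP1306* and 162, 1467 and 222 in the control, and were thus high on 4 of those 5 arrays. The other 4 genes of the oenocyte and hydrocarbon list summed to between 2322 and 2784 on all arrays. Of these *FarO*, a fatty acyl reductase of oenocytes, was at 13.4 to 24.2, and *bond* was lower in *EP1306* (-0.34, limma adjusted p = 0.00849). The part of the abdominal transcripts in the *Cyp4g1* values was not tested. Without the richest array of each genotype in accessory gland transcripts, the *BxJ* arrays left were still rich in them (sums of 2099 and 1182) and the control arrays left were poor (140 and 184), with *Cyp4g1* at 936 and 523 against 33.0 and 25.8. In that fit *Cyp4g1* was called higher in *BxJ* (3.99, limma adjusted p = 0.015), and gland transcripts and genotype cannot be told apart there. *Cyp4g15*, a related gene of the nervous system also chosen after its values were seen, measured 1129 to 1226 in *BxJ*, 1208 to 1345 in *EP1306* and 1195 to 1380 in the control, with overlap throughout.

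**Figure D5:**
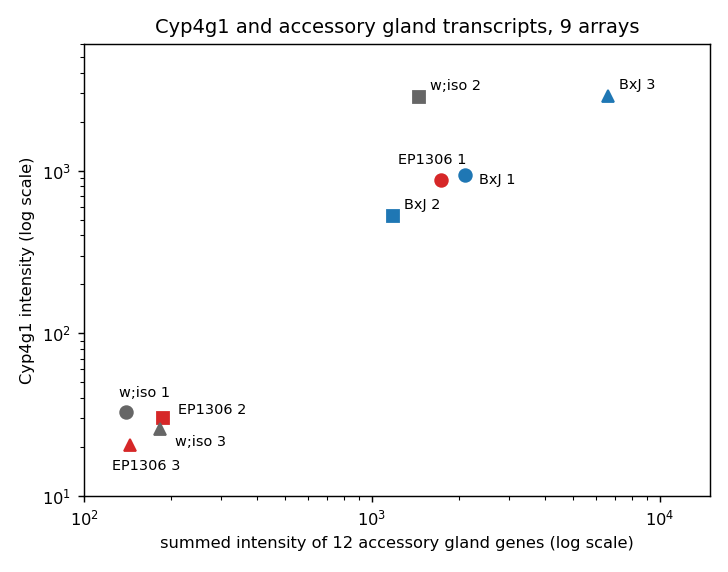
Cyp4g1 intensity (y axis) against the summed intensity of 12 male accessory gland genes (x axis) on each of the 9 arrays, both on log scales; colours mark genotypes. The 5 arrays with a sum of 1182 or more have a Cyp4g1 intensity of 523 or more, and the 4 with a sum of 188 or less have 33.0 or less.

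A mean intensity under 50 was found for 42.0% of the family, near the 45.7% of all genes. On every array 27 of the 81 genes stayed under an intensity of 32, a count that was not made over all genes. Among them were 8 of the 10 other CYP4 clan genes, the Cyp313 group and its relatives, and both other mitochondrial genes, *Cyp301a1* and *Cyp49a1*. *Cyp313a1* was the exception in its group, at 17430, 14930 and 15090 in *BxJ*, 17190, 15260 and 15040 in *EP1306* and 15400, 13520 and 13590 in the control, which overlapped (0.16 ± 0.08 in each mutant, limma adjusted p = 0.457 in *BxJ* and 0.621 in *EP1306*).

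The Halloween genes encode P450 enzymes that build ecdysone and its active form from sterol precursors. The 5 measured, *spo*, *spok*, *dib*, *sad* and *shd*, lie outside the symbol rule and were counted apart. All lay at the floor of the array, between 4.41 and 11.7 on every array, and 0 of 5 were called in either mutant. At an unadjusted p under 0.05, limma gave 1 of them, *sad*, lower in each mutant (background 8.30% of genes lower in *BxJ* and 7.39% in *EP1306*), at 5.79 to 6.07 in *BxJ*, 5.76 to 6.23 in *EP1306* and 6.50 to 9.02 in the control.

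Partners of the P450 enzymes were taken from a list of 29 symbols for redox partners, haem synthesis, regulators and other steps of steroid synthesis, of which 24 matched a probe set. In *BxJ* 0 of 24 were called, with 0 higher and 3 lower at an unadjusted p under 0.05 by limma, at a background of 0.325% of all genes called and 8.30% lower unadjusted. In *EP1306* 1 was called, higher, at a background of 0.484%. This was *maf-S*, the small Maf partner of the stress regulator CncC, which drives detoxification genes. Its intensity was 2286, 2072 and 2219 in *EP1306*, 1826, 1837 and 1672 in the control and 1776, 1729 and 1730 in *BxJ*. *EP1306* lay above all other arrays, by 0.30 ± 0.05 over the control (1.23-fold, limma adjusted p = 0.0428) and 0.33 ± 0.05 over *BxJ* (limma adjusted p = 0.0301), and *BxJ* overlapped with the control (-0.03 ± 0.05). The *EP1306* call was lost in each of the 9 omissions of a single array, with a limma adjusted p of 0.0546 to 0.137.

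Neither *cnc* itself (-0.06 in *EP1306*, limma adjusted p = 0.701) nor *Keap1*, its inhibitor (0.16, limma adjusted p = 0.797), was called, both chosen for mention after their values were seen. *Npc1a*, a sterol transporter, measured 906, 915 and 990 in *BxJ* and 1170, 1075 and 1063 in the control, which did not overlap (-0.23 ± 0.05, limma adjusted p = 0.179). The sterol dehydrogenase gene *nvd* stayed under 7.8 on every array.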

How the data were processed

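The authors deposited MAS5 intensities on a linear scale, 1 value per probe set for 9 arrays. The MAS5 version and any further scaling are not given in the sources used here. MAS5 values of dim probe sets carry much noise, and the number of arrays limits the precision. After removal of 183 control probe sets, intensities were transformed as log2(intensity + 16), without scaling between arrays. All 9 arrays were fitted by genotype with limma 3.58.1 in R 4.3.3 (lmFit, contrasts.fit, eBayes with intensity trend), for 3 contrasts and an F-test, with Benjamini-Hochberg adjustment over 18769 probe sets. The fit was tested on simulated data. Symbols came from the array annotation, and chromosomes and gene order from the RefSeq table of Release 6. Probe sets naming several genes (2 with a P450 gene) were left out, and near-identical copies may share signal. Named genes were *Cyp6a20*, *Cyp309a1*, every member called, the 6 smallest p per contrast and direction, the 2 smallest F-test p per clade, all Halloween genes, and of the partners those called and the 3 smallest F-test p. The members and lists were chosen with earlier results of these data known. Alternatives were the added number, quantile normalization, median centring, a filter on mean intensity, no trend, a replicate block, fewer genotypes or arrays, spike-in level as a covariate and the methods' own tests.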

Additional observations from a re-analysis of the deposited data

Results flagged for a closer look

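The difference between the mutants was itself called for 3 genes, by the limma contrast of *EP1306* minus *BxJ*. *Cyp6a20* was higher in *EP1306* by 2.13 on the log2 scale (limma adjusted p = 0.0002), with all 3 *EP1306* arrays above all 3 *BxJ* arrays, and the call was kept in 9 of 9 omissions of a single array. *Cyp309a1* was lower in *EP1306*, at a difference of -2.22 (limma adjusted p = 0.0186), kept in 4 of 9 omissions and lost without *BxJ* replicate 1 or 2 or any *EP1306* array (limma adjusted p up to 0.0828). Of the partner genes, *maf-S* was higher in *EP1306* by 0.33 (limma adjusted p = 0.0301), kept in 3 of 9 omissions and lost without any *BxJ* array, *EP1306* replicate 1 or 3, or control replicate 2 (up to 0.108).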

How the results depend on the processing

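Of 4935 comparisons of a single gene's result with an alternative, 4848 kept their side of the threshold, 72 lost a call and 15 gained one. The sign of a called value changed in 0 of the 4935. They came from 252 pairs of a gene and a comparison, most of which were not called in the fit reported above. Most of the 4848 are thus uncalled values that stayed uncalled, and all 72 losses fall on the few called pairs. The share kept therefore does not measure the stability of a call. For values called in neither fit the sign was not compared, and some changed it, as *Cyp4d21* in *BxJ* did with the spike-in covariate. The count of P450 genes called in *EP1306* was 5 in the fit reported above, beside 214 of all probe sets. It was 3 with 64 added (beside 200), 3 without the intensity trend (beside 209) and 2 with the compared genotypes alone (beside 88). It was 10 where the methods' pairwise test and ANOVA were both under 0.05, unadjusted (12.3%, against 6.33% of all genes). By the pairwise test alone, after Benjamini-Hochberg, it was 0. The count in *EP1306* minus *BxJ* was 2, beside 230 of all probe sets. It was 1 with 64 added (beside 212) and 4 with the compared genotypes alone (beside 153). At a mean intensity of 50 or more it was 4 of 47 genes (beside 325). It was 8 by the methods' pairwise test and ANOVA together, unadjusted (9.88%, against 7.04%), or 1 by the adjusted pairwise test. The F-test count (3) was 6 of 47 genes at that filter and 14 by the methods' ANOVA or 1 adjusted. The share of all genes was not computed for these F-test alternatives. The count in *BxJ* (0) was 4 by the methods' pairwise test and ANOVA together, unadjusted. At the filter the family median was -0.078 in *EP1306* and -0.0877 in *EP1306* minus *BxJ*, over 47 genes, beside -0.02 and 0.01 over all 6512 such genes. The following were chosen after seeing the data. Without the 3 arrays richest in accessory gland transcripts the counts were 1 in *BxJ* and 1 in *EP1306*, beside 48 and 35 of all probe sets. With replicates 2 and 3 alone they were 1 in *EP1306* (beside 73), 1 in *EP1306* minus *BxJ* (beside 54) and 1 by the F-test. With spike-in level as a covariate 3 were called in *EP1306* (beside 49), and the medians were -0.1044 in *BxJ* and -0.0922 in *EP1306*. Leaving out 1 array at a time gave 0 to 0 in *BxJ*, 2 to 5 in *EP1306*, 1 to 4 in *EP1306* minus *BxJ* and 1 to 5 by the F-test, with medians of -0.02 to 0.04, -0.03 to 0.00 and -0.03 to 0.00. Fits with fewer arrays have fewer degrees of freedom, and otherwise the cause was not tested. Over all probe sets the deviations of same-numbered arrays correlated at -0.38 to 0.29, so the numbers were not taken as pairs, although replicate 1 was highest in all genotypes for 19 of 47 P450 genes. With the replicate block 4 genes were called in *EP1306*, 3 of them shared with the fit without it: *Cyp4d21* entered (limma adjusted p = 0.0313) and *Cyp4s3* (0.0645) and *Cyp6d2* (0.0677) left, and the F-test called 5.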
